A study of Mus musculus with 2 samples.

Results

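The LIM homeobox genes encode transcription factors that carry a pair of zinc-binding LIM domains and a DNA-binding homeodomain. The 10 genes described here are Lhx1, Lhx2, Lhx3, Lhx5, Lhx6, Lhx8, Lhx9, Isl1, Lmx1a and Lmx1b. They were taken by symbol from the 55536 genes of the deposited tables for GENCODE release M21, and all 10 were found once each, as protein-coding genes. Gene expression was measured by polyA plus RNA-seq in the facial prominences, the tissue swellings that build the face, of B6NCrl mouse embryos aged 12.5 days. The 2 biological replicates were whole-tissue pools of male and female embryos, 120 embryos in replicate 1 and 88 in replicate 2. Both libraries were primed with oligo-dT from 10 ng of RNA that had been extracted with Ambion mirVana, both held ERCC spike-in RNAs, and both were cut by Nextera tagmentation. The labels name no transgene, mutation or treatment, so the libraries form 1 group, and no comparison between conditions can be made. The labels do not say which prominences were taken, and a pool gives no value for a single embryo or cell type.

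A LIM homeodomain factor recognises DNA through its homeodomain and recruits partners through its LIM domains. The adaptors Ldb1 and Ldb2 bridge LIM domains of different factors, single-stranded DNA binding proteins of the Ssbp family stabilise that bridge, the ubiquitin ligase Rlim removes it, and LIM-only proteins compete for it. Combinations of LIM homeodomain factors are known for setting neuron identity in the brain and spinal cord. In the developing face, Lhx6 and Lhx8 are known as factors of the neural crest mesenchyme on the oral side of the first arch, where Fgf8 from the epithelium induces them, and Isl1 is known in arch epithelium, cranial sensory neurons and pharyngeal muscle progenitors.

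Stretches in front of members' start sites are shown here because they lie at the starts that the transcript values and the noncoding neighbours below refer to. The Lmx1b stretch is an exception, since no M21 transcript starts within 100 bases of its RefSeq start. All stretches come from the RefSeq promoter table of build GRCm38.p6 (mm10) and are written 5′ to 3′ on the minus strand that these genes use. They were trimmed to bases outside every annotated exon. Capitals mark each CG dinucleotide. The Isl1 stretch is chr13:116309690-116309938, the Lhx8 stretch chr3:154330660-154330810, the Lmx1b stretch chr2:33641099-33641192 and the Lhx1 stretch chr11:84525536-84525659. The Lhx6 stretches are chr2:36105409-36105658, in front of the outermost start, and chr2:36104061-36104310, in front of a start inside the gene.
Isl1: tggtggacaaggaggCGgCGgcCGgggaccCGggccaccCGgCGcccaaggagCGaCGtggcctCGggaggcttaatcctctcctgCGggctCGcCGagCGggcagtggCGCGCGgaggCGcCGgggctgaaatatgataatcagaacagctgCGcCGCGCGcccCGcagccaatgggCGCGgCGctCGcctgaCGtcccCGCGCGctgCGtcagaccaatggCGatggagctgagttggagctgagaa
Lhx8: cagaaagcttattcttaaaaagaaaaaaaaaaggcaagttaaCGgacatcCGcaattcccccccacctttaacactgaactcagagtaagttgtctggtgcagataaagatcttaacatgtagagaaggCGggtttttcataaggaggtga
Lmx1b: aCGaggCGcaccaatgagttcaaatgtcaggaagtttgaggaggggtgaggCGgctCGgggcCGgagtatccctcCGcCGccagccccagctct
Lhx1: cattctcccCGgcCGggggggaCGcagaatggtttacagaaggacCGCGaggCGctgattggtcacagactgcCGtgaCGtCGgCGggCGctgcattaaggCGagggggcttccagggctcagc
Lhx6 outer start: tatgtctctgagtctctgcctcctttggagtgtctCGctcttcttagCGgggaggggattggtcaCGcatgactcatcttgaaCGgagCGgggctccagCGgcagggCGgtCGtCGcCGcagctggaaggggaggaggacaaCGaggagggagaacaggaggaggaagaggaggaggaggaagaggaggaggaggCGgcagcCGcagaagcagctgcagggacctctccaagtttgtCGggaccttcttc
Lhx6 inner start: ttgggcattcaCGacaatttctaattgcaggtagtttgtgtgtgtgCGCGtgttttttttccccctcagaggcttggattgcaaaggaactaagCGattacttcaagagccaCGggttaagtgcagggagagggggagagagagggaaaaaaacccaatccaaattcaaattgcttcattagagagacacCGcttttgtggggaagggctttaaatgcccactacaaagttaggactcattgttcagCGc

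The full 250 bases upstream of the RefSeq start of Isl1 held 33 CG dinucleotides and those of Lhx8 held 4. The median was 6 over all 32851 RefSeq promoters. The RefSeq start of Lhx8, at 154330560, lies inside the M21 gene, so 99 bases of its window are annotated exon. Over the 13 promoters that the table lists for 9 of the members the median was 17. They include an Lhx2 window, in front of a RefSeq start at 38351308, that lies wholly in annotated exon. Of the 3 Lhx6 windows, that at the outer start held 14 CG dinucleotides and that at the inner start 7. The third, in front of a RefSeq start at 36104533 with no M21 transcript starting within 100 bases, held 17. The letters TAATTA, which read the same on both strands and resemble the core that many homeodomains recognise, occurred in 0 of the 13 windows and in 4.84% of all RefSeq promoters. This says only that these letters are not in these windows.

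The libraries held summed expected counts of 28705073 in replicate 1 and 41092194 in replicate 2, of which spike-ins took 2.85% and 3.10%. The members took 5395 and 6115 expected counts. The labelled tissue was checked against marker lists. All 6 facial mesenchyme markers and all 6 markers of surface and oral epithelium reached 1 TPM in each library (TPM is a share of all transcripts, corrected for transcript length), with median levels of 112 and 62.7 TPM. Lists for nearby organs were also present in part, and their values stand beside the members they touch. In bulk tissue, fewer cells of a type and less RNA per cell cannot be told apart, which holds for every level below.

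The family ranged from Lhx8 at 52.3 ± 6.70 TPM to Lhx1 at 0.450 ± 0.0283 TPM (mean ± SD, n = 2, here and below). A gene was called detected where neither library fell below 1 TPM, which 6 of the 10 members reached: Lhx8, Isl1, Lhx2, Lhx6, Lmx1a and Lhx3. Over all 22028 protein-coding genes 60.7% reached it, so the members' share was near the background. Lhx8 and Isl1 together made up 70.8% of the summed TPM of the 10 members in replicate 1 and 70.6% in replicate 2. By mean TPM, Lhx8 stood above 84.7% of protein-coding genes and Lhx1 above 33.8%.

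In the order of mean level, Lhx8 stood above Isl1 and Isl1 above Lhx2 without overlap of the libraries' values. Lhx2 and Lhx6 overlapped, and both stood above the rest. Below them, each of Lmx1a, Lhx3, Lhx5 and Lhx9 overlapped with the next gene in the order, down to Lmx1b. Lhx1 stood below Lmx1b without overlap, at 0.43 and 0.47 TPM against 0.80 and 0.58. By the posterior mean, a second TPM estimate in the deposited tables, Lhx1 (0.87 and 0.84 TPM) and Lmx1b (0.97 and 0.76 TPM) did overlap. With 2 libraries an exact 2-sided sign-flip test cannot go below p = 0.5, so the order is a description.

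**Figure D1:**
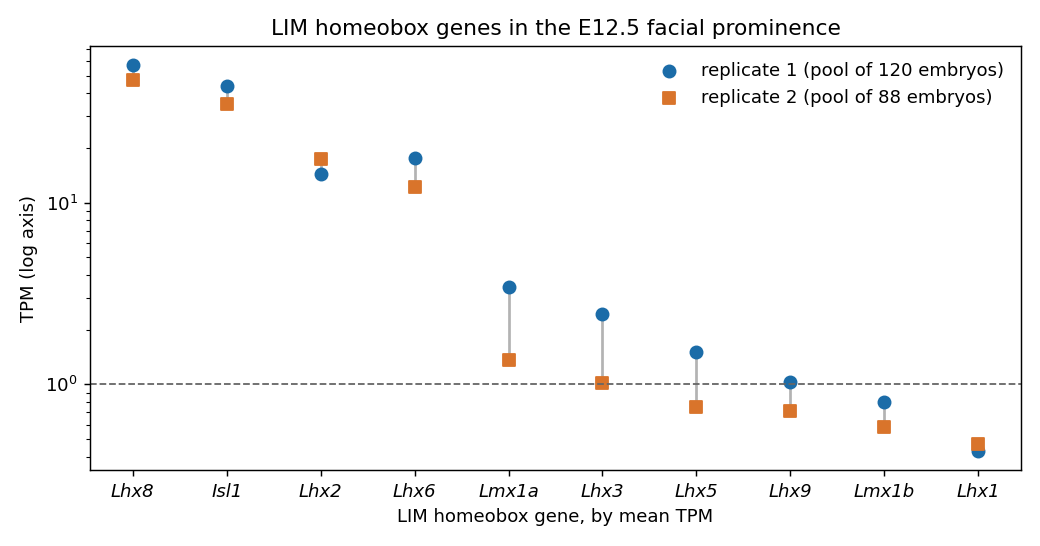
TPM (log axis) of the 10 LIM homeobox genes in each library, circles for replicate 1 and squares for replicate 2, ordered by mean TPM; the dashed line marks a TPM of 1. Lhx8, Isl1, Lhx2 and Lhx6 lie above 10 TPM in both libraries. The replicate 1 value is the higher for 8 of the 10 genes, against 8789 of all 22028 protein-coding genes. Those 22028 include genes at 0 TPM in both libraries, which are higher in neither, so this background is too low for expressed genes. The 8 include Lhx9 and Lmx1b, for which a difference was not detectable at this depth.

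Lhx8, required in mice for palate closure and for forebrain cholinergic neurons, lies on chromosome 3, 154306294 to 154330659, on the minus strand. It had 57.1 TPM in replicate 1 against 47.6 TPM in replicate 2, from 1692 and 1994 expected counts. Its close relative Lhx6, which acts with Lhx8 in first arch mesenchyme and in the ventral forebrain directs interneurons, lies on chromosome 2, 36081953 to 36105408, on the minus strand. Lhx6 stood at 17.5 and 12.1 TPM, from 955 and 920 expected counts. Both genes were lower in replicate 2, and Lhx8 exceeded Lhx6 by 3.26 times in replicate 1 and 3.92 times in replicate 2. Translated from the annotated coding sequences, their homeodomains share 56 of 60 residues, or 93.3%.

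Isl1, an early factor of sensory and motor neurons and of pharyngeal progenitors, lies on chromosome 13, 116298281 to 116309689, on the minus strand. It stood at 43.6 and 35.0 TPM, from 1660 and 1793 expected counts. Its relative Isl2, which is not among the 10 members, stood at 21.8 and 16.2 TPM. Both Islet genes were higher in replicate 1.

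Lhx2, a factor of the optic vesicle, cortex and olfactory neurons, lies on chromosome 2, 38339281 to 38369733, on the plus strand. It stood at 14.4 and 17.4 TPM, from 560 and 1003 expected counts, and was higher in replicate 2. Lhx9, known in the gonad, limb and diencephalon, lies on chromosome 1, 138825186 to 138848577, on the minus strand. It stood at 1.03 and 0.71 TPM, from 63 and 65 expected counts. The pair has an identical homeodomain (60 of 60 residues), yet Lhx2 exceeded Lhx9 by 14.0 times in replicate 1 and 24.5 times in replicate 2.

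Lmx1a and Lmx1b also share all 60 homeodomain residues. Lmx1a, a factor of the roof plate, midbrain floor plate and inner ear, lies on chromosome 1, 167689237 to 167848741, on the plus strand. It stood at 3.42 and 1.37 TPM, from 205 and 116 expected counts. Lmx1b, a factor of dorsal limb mesenchyme, periocular mesenchyme and serotonergic neurons, lies on chromosome 2, 33560965 to 33640511, on the minus strand. It stood at 0.80 and 0.58 TPM, from 69 and 71 expected counts. Lmx1a was thus the higher of the pair in both libraries, by 4.28 times in replicate 1 and 2.36 times in replicate 2.

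Lhx1 and Lhx5, which share all 60 homeodomain residues, are known in head organiser, kidney and spinal interneurons (Lhx1) and in forebrain and hippocampus (Lhx5). Lhx5, on chromosome 5, 120431699 to 120441223, on the plus strand, stood at 1.51 and 0.75 TPM, from 72 and 51 expected counts. Lhx1, on chromosome 11, 84518284 to 84525535, on the minus strand, had 27 and 46 expected counts. Lhx5 exceeded Lhx1 by 3.51 and 1.60 times. Lhx3, a factor of the pituitary and of motor neurons, lies on chromosome 2, 26200212 to 26208289, on the minus strand, and had 2.44 and 1.02 TPM, from 92 and 55.5 expected counts. Its relative Lhx4, not among the members, stood at 0.03 and 0.11 TPM from 3 and 15 expected counts, close to the limit of detection. The Lhx3 homeodomain shares 42 of 60 residues, or 70.0%, with those of Lhx1 and Lhx5, and the lowest identity among the members, 38.3%, was that of Isl1 with Lmx1a and Lmx1b.

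The libraries were then set against each other as log2 of (TPM + 1) in replicate 2 over (TPM + 1) in replicate 1. This places 1 library against 1 library: there is no replicate check and no p-value, and the 1 added understates differences of low genes. A difference was counted at an absolute log2 ratio of at least 0.25, which is 1.19-fold on that scale, for genes with a mean TPM of at least 1. Of the 10 members 7 passed that mean, Lhx5 only through replicate 1. Of these, 6 were lower in replicate 2 (Lmx1a, Lhx3, Lhx5, Lhx6, Isl1 and Lhx8) and Lhx2 was higher.

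Over 13585 protein-coding genes with that mean, 6.76% were lower and 5.89% higher by this measure. The median log2 ratio was -0.50 over the 7 members and 0.00 over those genes. Differences were commoner among low genes: 16.3% were lower at a mean TPM of 1 to 5, where Lmx1a, Lhx3 and Lhx5 lie, and 4.43% at 5 or more, where Lhx8, Isl1 and Lhx6 lie. Without the filter on the mean, 6 of all 10 members were lower and the median was -0.28, against 1240 of 22028 protein-coding genes and a median of 0.00. That background includes genes at 0 TPM in both libraries, which cannot pass.

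The widest difference was that of Lmx1a, with a log2 ratio of -0.90. Its ratio of counts, replicate 2 over replicate 1 after scaling by the summed counts of genes, was 0.396, with a 95% interval (exact, Clopper-Pearson) of 0.313 to 0.50 that covers counting error only. Lhx3 followed at a log2 ratio of -0.77, with a count ratio interval of 0.300 to 0.601, and Lhx5 at -0.52, with 0.340 to 0.720. Despite the few reads behind these genes, all of those intervals lay below 1.

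Among the more abundant members, Lhx6 had a log2 ratio of -0.50 and a count ratio interval of 0.616 to 0.739. Isl1 had -0.31 and 0.707 to 0.809, and Lhx8 had -0.26 and 0.773 to 0.881. Lhx2 had 0.25 and 1.13 to 1.39. Lhx8 and Lhx2 both lay at the edge of the threshold and missed it by the posterior mean, at -0.24 and 0.22. Lhx2 also missed it, at 0.12, under scaling on the spike-ins, which took a larger share of replicate 2 (a log2 shift of 0.14 in their total).

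The intervals of Lhx9 (0.503 to 1.04), Lmx1b (0.510 to 1.02) and Lhx1 (0.726 to 2.00) included 1, so a difference was not detectable at this depth. Altogether 6 of the 7 members that passed the mean had an interval below 1, against 15.5% of protein-coding genes, and Lhx2 had one above 1, against 14.7%.

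**Figure D2:**
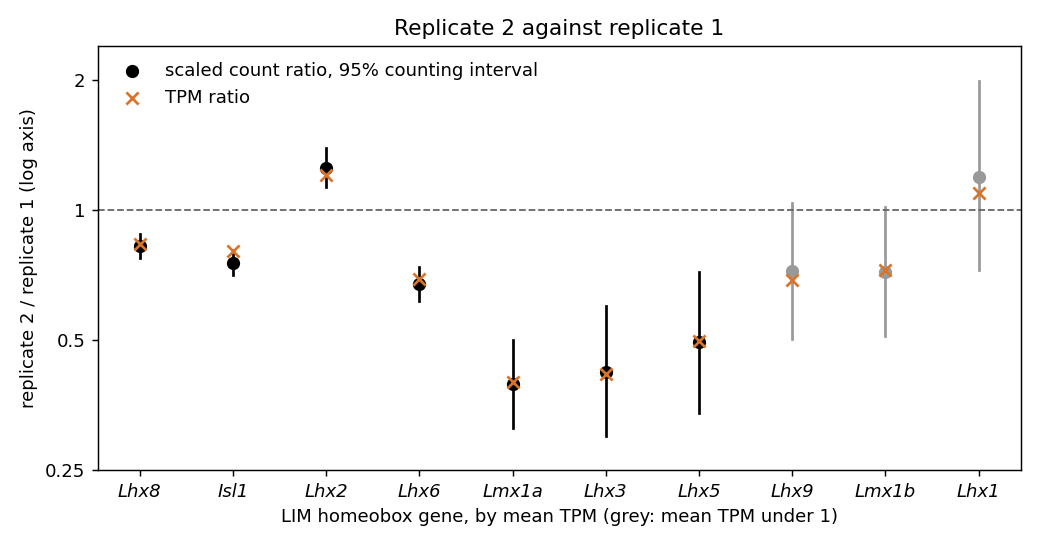
Replicate 2 over replicate 1 (log axis) for each LIM homeobox gene: dots are ratios of scaled expected counts with 95% counting intervals, crosses are ratios of deposited TPM, and grey marks genes with a mean TPM under 1. Lhx2 alone has an interval above 1; the intervals of Lhx9, Lmx1b and Lhx1 cross the dashed line at 1.

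Adaptors and competitors of the LIM domains were set beside the members. All 6 cofactors were detected, with a median of 108 TPM, and 0 of 6 passed the log2 threshold. Ldb1 stood at 111 and 103 TPM, Ssbp3 at 216 and 218 TPM, and Rlim at 34.3 and 34.1 TPM. Ldb1 stood above every member in both libraries. All 4 LIM-only genes were detected too, led by Lmo4 at 71.6 and 65.7 TPM, and 0 of 4 passed the threshold. Few genes pass in any case: 6.76% of protein-coding genes with a mean TPM of at least 1 were lower and 5.89% higher. The count ratio intervals of Ldb1 (0.884 to 0.962), Ssbp4 (0.888 to 0.993) and Lmo4 (0.864 to 0.974) lay below 1. Those of the other cofactors and LIM-only genes included 1.

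For Lhx6 and Lhx8 a list of oral and proximal arch mesenchyme genes was read, which is not limited to genes of the oral side. Of its 7 genes, 5 were lower in replicate 2 and 0 higher, with a median log2 ratio of -0.43. The 5 include Gsc at 50.9 and 36.9 TPM, Dlx1 at 68.3 and 51.1 TPM and Dlx2 at 23.4 and 17.1 TPM. Barx1, a factor of proximal arch mesenchyme and molar teeth, stood at 168 and 83.9 TPM, and Pitx1, a factor of the lower jaw, at 123 and 77.4 TPM. Msx1 (319 and 308 TPM) and Osr2 (89.9 and 92.2 TPM) did not pass the threshold. Of the 6 signals of the oral side, Fgf8, the inducer of Lhx6 and Lhx8, was lower at 4.76 and 2.71 TPM, and Edn1 at 1.78 and 1.26 TPM, while the other 4 did not pass. The facial mesenchyme markers had a median log2 ratio of 0.04, with 0 of 6 lower and Alx1 higher at 103 and 150 TPM. The part of these genes in the values of Lhx6 and Lhx8 was not tested.

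Lhx6 and Lhx8 are also forebrain genes. Of the 6 ventral forebrain markers, 3 were detected and all 6 had counts in both libraries. Their summed level was 11.5 TPM in replicate 1 and 6.78 TPM in replicate 2. Of the 4 with a mean TPM of at least 1, 3 were lower in replicate 2 and 0 higher, with a median log2 ratio of -0.50. Nkx2-1, the factor of the ventral telencephalon, stood at 3.46 and 1.27 TPM. The summed level of these 6 ventral markers was below that of Lhx6 alone in both libraries. Marker levels do not measure how much of the Lhx6 RNA came from forebrain. Of the 5 dorsal forebrain markers 1 was detected, and their sum was 23.0 and 17.3 TPM, most of it Emx2 at 18.6 and 16.1 TPM. Emx2 was the only dorsal marker with a mean TPM of at least 1, and it did not pass the threshold. The others were low, among them Tbr1, a factor of early cortical neurons, at 1.75 and 0.20 TPM. Whether forebrain RNA has a part in the values of Lhx5, Lhx6 or Lhx8 was not tested.

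For Isl1 the sensory and motor neuron lists were read. All 8 cranial sensory neuron markers were detected, with summed levels of 153 and 136 TPM, and 4 of 8 were lower in replicate 2. Pou4f1, a sensory neuron factor that works with Isl1, stood at 15.3 and 12.4 TPM. Motor neuron markers were low: 1 of 6 markers was detected, Mnx1 had 3 and 2 expected counts, Chat had 1 in each library, and the summed level was 2.3 and 4.17 TPM. Head and pharyngeal muscle markers, another setting of Isl1, were all detected, with 0 of 6 lower and 2 higher. Heart markers summed to 33.5 and 27.9 TPM, with 3 of 5 lower, 0 higher and a median log2 ratio of -0.37. Nppa, an atrial hormone gene, differed most among the heart genes, at 8.29 and 0.50 TPM. Without Nppa the heart sum was not lower in replicate 2. Tnnt2, the most abundant heart marker, went the other way at 18.1 and 21.6 TPM. So did Nkx2-5 at 2.02 and 2.41 TPM, both short of the threshold. The part of sensory neurons or heart in the Isl1 value was not tested.

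Lhx2 was read beside the eye list. Of the 6 retina and optic cup markers 5 were detected, and the 6 summed to 32.8 and 39.1 TPM. Of the 5 with a mean TPM of at least 1, 3 were higher in replicate 2 and 0 lower. Six6 stood at 4.59 and 6.52 TPM and Otx2 at 6.04 and 8.11 TPM, while Crx, a gene of photoreceptors, had 3 and 0 expected counts. Olfactory epithelium, where Lhx2 is also known, had 6 of 7 markers detected and 0 past the threshold, and its sum was 181 and 162 TPM. The part of the eye in the Lhx2 value was not tested.

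Lhx3 was read beside the pituitary list, where 2 of 7 markers were detected (Pomc and Cga). Hesx1, an early pituitary factor, stood at 2.15 and 0.69 TPM. Cga, the shared hormone subunit, went the other way at 1.54 and 3.64 TPM, so the summed level hardly differed, at 11.4 and 11.2 TPM. Pou1f1 had 0 and 3 expected counts and Gh had 0 in both libraries. For Lmx1a, the inner ear list had 1 of 7 markers detected, Oc90, an otoconial protein gene, at 40.9 and 17.9 TPM, and summed levels of 43.4 and 20.1 TPM. Of the 4 roof plate and choroid plexus genes with a mean TPM of at least 1, 0 were lower and 2 higher. Of the 5 such genes in the midbrain list, 1 was lower and 1 higher. The summed levels were 11.9 and 12.6 TPM for the roof plate list and 24.7 and 26.4 TPM for the midbrain list. Single genes went either way: Pax2 of the inner ear list stood at 0.43 and 0.74 TPM, and Th of the midbrain list, the enzyme of dopamine synthesis, at 5.55 and 3.74 TPM. The part of pituitary, inner ear or neural tube in these values was not tested.

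Of the settings of Lmx1b, all 5 periocular mesenchyme markers were detected, with 0 lower and Tfap2b higher, and 1 of 5 limb bud markers was detected. Hoxd13 and Hoxa13, which mark the distal limb, had at most 1 expected count in a library.

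**Figure D3:**
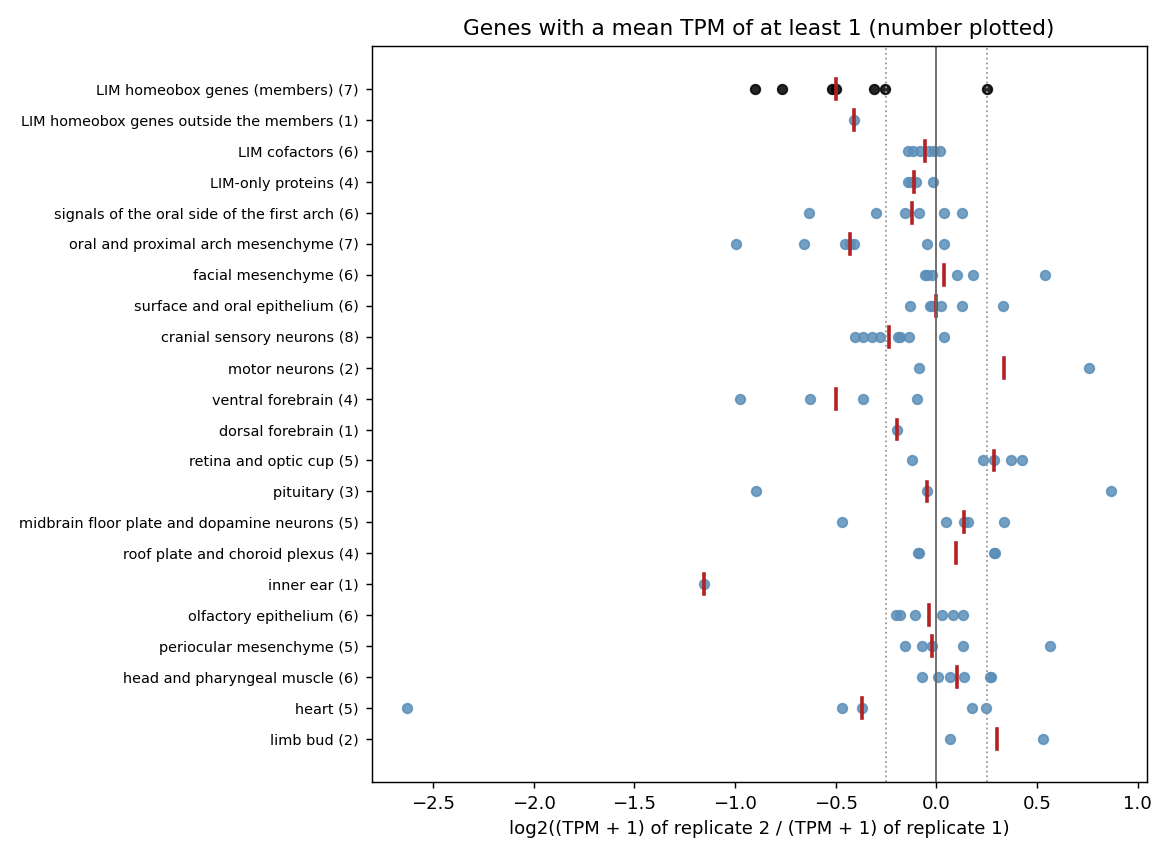
Log2 ratio of (TPM + 1), replicate 2 over replicate 1, for the LIM homeobox genes (black) and the genes of each list (blue) with a mean TPM of at least 1; red bars are medians, dotted lines mark 0.25 in both directions, and brackets give the number of genes plotted. The median lies at -0.50 for the LIM homeobox genes, near 0 for cofactors and facial mesenchyme, and at -0.43 for oral and proximal arch mesenchyme. It also lies at -0.50 for ventral forebrain, at -0.37 for heart and, from 1 gene, at -1.15 for inner ear. For retina and optic cup it lies at 0.28.

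Transcript tables give, for each annotated transcript, its percent of the gene's abundance. Lhx5 (1 annotated transcript), Lmx1b and Lmx1a were carried by 1 transcript each, with 100%, 100% and 99.96% in replicate 1 and 100% in replicate 2. By the posterior mean, Lmx1b-201 carried 79.35% and 73.49% of Lmx1b, and Lmx1a-201 carried 83.84% and 81.23% of Lmx1a. Their near-complete shares thus depend on the estimator. For the other members, transcripts that encode both LIM domains and the whole homeodomain carried at least 68.0% of the gene in each library, except in Lhx9. By the posterior mean the Lhx1 share was far lower, at 39.8% and 52.1% against 87.3% and 100%. The Lhx3 share was lower too, at 62.8% and 75.1% against 68.0% and 87.2%. These shares divide reads that several transcripts share and are estimates without a counting interval.

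Lhx9 was led in both libraries by Lhx9-201, with 40.4% and 41.3%. That transcript encodes 330 residues with both LIM domains, and its reading frame ends before the recognition helix letters WFQN of the homeodomain. Transcripts with both LIM domains and the whole homeodomain, Lhx9-202 and Lhx9-204, carried 37.6% of Lhx9 in replicate 1 and 12.1% in replicate 2. Few reads lie behind these values: Lhx9-201 had 37.3 expected counts in each library, and Lhx9-202 had 15.9 and 5.85. From the posterior mean the average share of Lhx9-201 was 14.3%, so its lead depends on the estimator.

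Lhx6 had 9 annotated transcripts, and a different transcript led in each library. Lhx6-201, which encodes 392 residues, carried 29.7% and 31.8%, and Lhx6-204, which encodes 348, carried 26.9% and 34.2%. By the posterior mean Lhx6-201 carried 16.5% and 18.7%, and Lhx6-204 led in both libraries with 28.7% and 32.8%. Lhx6-202, which shares its start with Lhx6-204, had 97.9 expected counts in replicate 1 and 0 in replicate 2. Grouped by start site, the shares were close between libraries. The inner start at 36104060 carried 36.4% and 34.2%, the pair of transcripts starting between 36105255 and 36105271 carried 38.3% and 40.5%, and the outer start at 36105408 carried 21.1% and 20.1%. By the posterior mean these shares were 41.7% and 38.8%, 25.0% and 27.4%, and 25.6% and 25.1%. The inner start then led, but only under this grouping. The pair and the outer start lie close together, between 36105255 and 36105408. Combined, they carried more than the inner start in both libraries under both estimates. Under both estimates the outer and inner starts, whose upstream stretches are shown above, each carried over 20% of Lhx6.

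Lhx8-201, which encodes 367 residues, led Lhx8 with 61.7% and 51.4%. Lhx8-205, with 346 residues and a start inside the gene at 154330059, carried 13.6% and 27.2%, from 233 and 551 expected counts. Lhx8-204, annotated without the end of its coding sequence, carried 20.3% and 16.8%. In the tables made with release M4, the mean share of Lhx8-201 was 70.6%. The cause of that shift was not tested.

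Isl1-201, which encodes 349 residues, led Isl1 with 75.8% and 67.9%. Isl1-202, which encodes 326 residues and keeps both LIM domains and the homeodomain, carried 11.0% and 18.6%. For Isl1 and for Lhx8 alike, the leading transcript had the higher share in replicate 1. Lhx2-201 led Lhx2 with 65.6% and 72.2%, followed by Lhx2-202, whose annotated coding sequence is incomplete and lacks the homeodomain, with 19.4% and 16.8%. Lhx3-201 led Lhx3 with 68.0% and 77.5%, while the retained intron transcript Lhx3-203 carried 32.0% and 12.8%, from 27.1 and 6.40 expected counts. Lhx1-201, the only Lhx1 transcript with both LIM domains and the homeodomain, led Lhx1 from 25.9 and 46 expected counts.

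**Figure D4:**
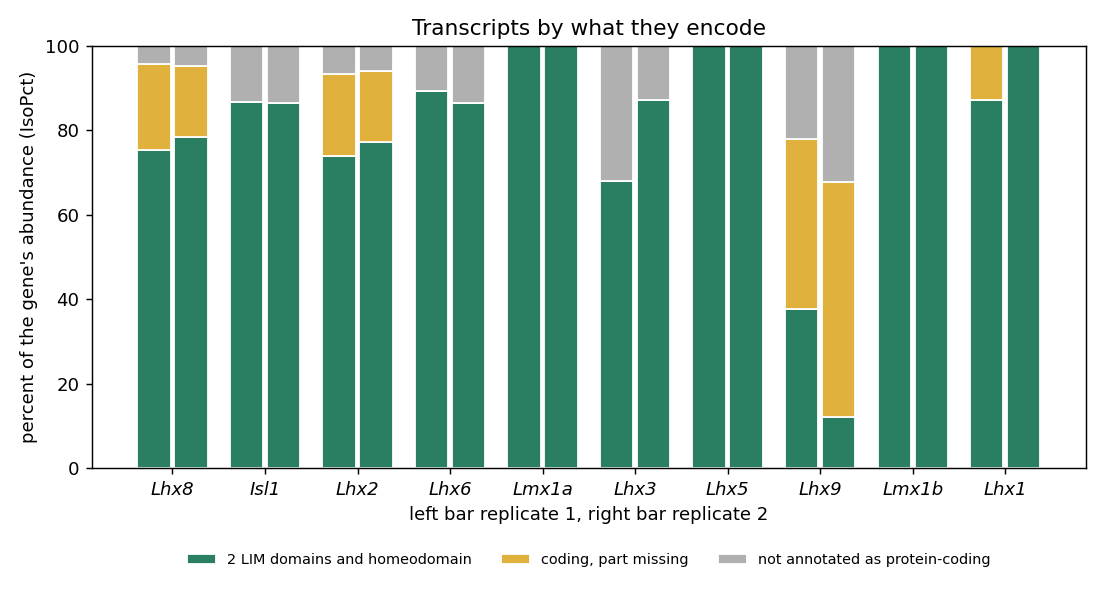
Percent of each gene's abundance (deposited isoform percent) on transcripts that encode both LIM domains and the homeodomain (green), on coding transcripts that lack a part (yellow) and on transcripts not annotated as protein-coding or marked for nonsense-mediated decay (grey); left bars are replicate 1, right bars replicate 2. In Lhx9 the green share is 37.6% and 12.1%. In every other gene shown it is at least 68.0% by this estimate. The posterior mean gives 39.8% and 52.1% for Lhx1, and 62.8% and 75.1% for Lhx3.

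Several members have a noncoding gene close to their start on the other strand. AI606473 starts 162 bases from Lhx8, at 154330821, and runs away from it to 154334254 without overlap. The 151 bases of Lhx8 printed above lie between these starts. AI606473 stood at 40.8 and 37.2 TPM, from 1091 and 1418 expected counts, which is below Lhx8 in each library but above Lhx2 and Lhx6. Its count ratio interval was 0.841 to 0.986, and its log2 ratio of -0.13 did not pass the threshold.

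C130021I20Rik starts at 33641193, a distance of 682 bases from the M21 start of Lmx1b on the opposite strand, also without overlap. The Lmx1b stretch printed above lies between it and the RefSeq start of Lmx1b, within 100 bases of which no M21 transcript of Lmx1b starts. It stood at 4.31 and 5.66 TPM, from 189 and 338 expected counts, above Lmx1b in both libraries. Its count ratio interval was 1.05 to 1.5, above 1, whereas that of Lmx1b was 0.510 to 1.02. Lhx1os, whose start lies 125 bases from that of Lhx1, stood at 1.02 and 1.00 TPM from 8 and 13 expected counts, also above Lhx1. So of these 3 noncoding neighbours, 2 had a higher TPM than the LIM homeobox gene beside them. For Lhx1os this rests on fewer counts than the 27 and 46 of Lhx1, with a large counting error.

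Antisense genes that overlap a member are uncertain, because no source used here gives the strand setting of the counting. Among them were Gm27199 at Lhx5 (0.93 and 0.36 TPM) and Gm27197 at Lhx2 (0.71 and 1.61 TPM), whose reads cannot be told apart from those of the member without strand. Each had at most 16 expected counts in a library. The protein-coding neighbour of Lhx9, 2310009B15Rik, stood at 34.1 and 33.7 TPM, far above Lhx9 itself.

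**Figure D5:**
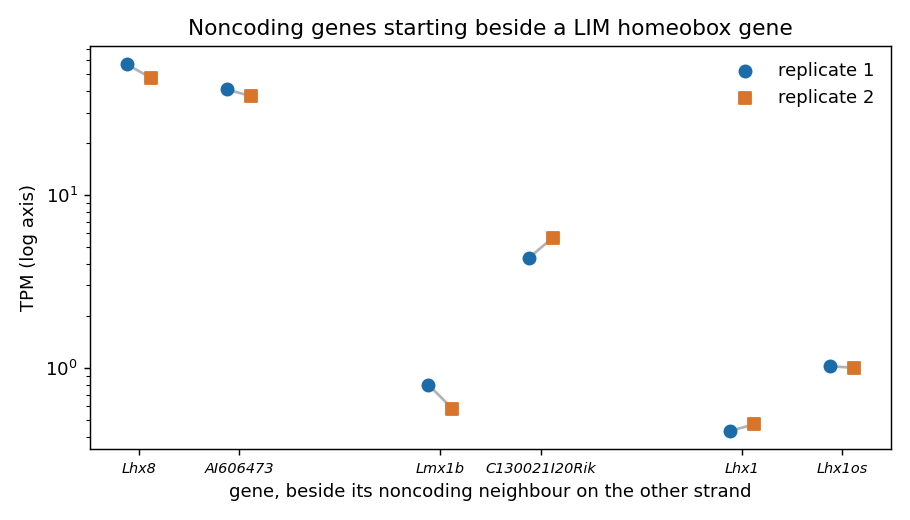
TPM (log axis) of Lhx8, Lmx1b and Lhx1, each beside the noncoding gene that starts next to it on the other strand, circles for replicate 1 and squares for replicate 2. AI606473 lies below Lhx8 in both libraries, while C130021I20Rik and Lhx1os lie above Lmx1b and Lhx1.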

How the data were processed

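Gene-level and transcript-level tables on mm10, for GENCODE releases M21 and M4 (per the deposited file descriptions), were available for both libraries. Per the file headers, the deposited tables hold expected counts (estimated reads, which need not be whole), TPM, FPKM and the percent of a gene's abundance on each transcript. The aligner, quantifier and strand setting were not given in the sources used here. The members and all gene lists were chosen with earlier results of these data known. The text names all 10 members, listed genes, and genes that overlap a member or start within 10 kb of its start. Listed genes not named in the text enter their list's counts, medians and sums. Prrxl1 was matched to its synonym Drgx.

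Deposited M21 TPM gave levels and log2 ratios. Expected counts, rounded, gave exact conditional 95% intervals of the replicate ratio; the tables record no molecular identifiers, so these cover counting error only. Spike-ins and other rows that name no gene (2.85% and 3.10%, and 0.000139% and 0.000114% of counts) stayed out of library sizes. Coding sequences were translated from the M21 transcripts in place of the planned RefSeq protein table, and the homeodomain was located by the letters WFQN. Computation used Python 3.11.15, pandas 2.3.3 and scipy 1.17.1, with R 4.3.3, edgeR 4.0.16 and DESeq2 1.42.0 for alternative scaling factors only; the ratio procedure was tested on simulated data. Alternatives changed the TPM minimum, pseudocount, release, estimator, FPKM, scaling, threshold, filter and replicate.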

Additional observations from a re-analysis of the deposited data

How the results depend on the processing

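The count of members with an absolute log2 ratio of at least 0.25 was 7, and it was 4 with a pseudocount of 5 and 3 with a threshold of 0.5. The count of members lower in replicate 2 was 6, and it was 3 with the threshold of 0.5. With the pseudocount of 5, Lhx5 (-0.18), Lhx8 (-0.24) and Lhx2 (0.20) missed 0.25. Lhx8 and Lhx2 lay at the edge of that threshold. Detected members numbered 6, and 9 with a minimum TPM of 0.5, 4 with a minimum of 2 or with FPKM, and 6 to 8 in a single library. Of the members' log2 ratios under alternative settings, 76 moved by less than the spread used and 4 by more. The 4 were Lhx8 (-0.39) and Isl1 (-0.44) scaled on the spike-ins and Lmx1a with pseudocounts of 0.1 (-1.26) and 5 (-0.40). None of the alternatives turned the direction of a member called different. Leaving out a replicate is not possible for a ratio of both libraries, and no paired analysis was possible because there is 1 group. Depth limits Lhx9, Lmx1b and Lhx1, with at most 71 expected counts in a library, and the transcript shares of such genes. From the posterior mean, the mean share of the transcript named as leading was 46.0% for Lhx1, 56.3% for Lhx3, 82.5% for Lmx1a and 76.4% for Lmx1b. For Lhx6, a more abundant gene, it was 17.6% for Lhx6-201, and the cause was not tested.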
